A study of Rattus norvegicus with 58 samples.

Results

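The livers of 5 inbred rat strains were compared on 2 sides set by the level of Nr1d1: a low side of ACI and M520 (4 arrays) and a high side of BN, F344 and WKY (6 arrays), 10 of the 58 arrays of the series. The strains were chosen by their measured Nr1d1, so what follows on the sides is a description without a test. BUF (2 arrays) belonged to neither side. Every array held liver RNA of 1 male rat, killed at 17 weeks of age after a night without food, and the labels mention no transgene or compound. The other 46 arrays came from heterogeneous stock (HS) rats, outbred animals descended from inbred strains, of which 23 had normal glucose tolerance and 23 were glucose intolerant. Those rats took no part in drawing the sides, and the tests below on Nr1d1 were run in them. The sources used here give no hour of death, scan date, cage or family, and among the inbred rats strain and any of these cannot be told apart. Nothing in the labels says that the 2 rats of a strain were raised apart, and a p-value speaks only to the spread between the arrays.

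Nr1d1 encodes REV-ERB alpha, a nuclear receptor that represses transcription and is itself part of the circadian clock of liver. BMAL1 pairs with CLOCK or NPAS2 and activates genes through E-boxes, among them those of Nr1d1, the period genes, the cryptochromes and the PAR bZIP factors Dbp, Tef and Hlf; the period and cryptochrome proteins then inhibit that pair. REV-ERB alpha and beta repress Bmal1 through an element that the activator RORA also binds, so that in a running clock Bmal1 and Nr1d1 peak at opposite phases.

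Values are log2 expression, on which a difference of 1 is a doubling, and the median of all values was 5.37. On its only probe set, 1370816_at, Nr1d1 read 4.20 and 4.81 in the ACI rats and 4.39 and 4.32 in the M520 rats. It read 7.44 and 8.14 in BN, 7.19 and 8.42 in F344, and 7.86 and 7.58 in WKY. The low side averaged 4.43 ± 0.27 (SD, n = 4) and the high side 7.77 ± 0.46 (SD, n = 6), 10.1-fold apart, with an empty stretch of 2.37 between the nearest arrays. The low side lay below the median of all values, where an array signal may be mostly background, so the fold may be understated. The BUF rats read 7.05 and 7.59, next to the high side. Among the HS rats Nr1d1 ran from 4.57 over a median of 7.33 to 8.69: 1 rat lay at or below the highest low-side array, 18 between the sides and 27 at or above the lowest high-side array.

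**Figure D1:**
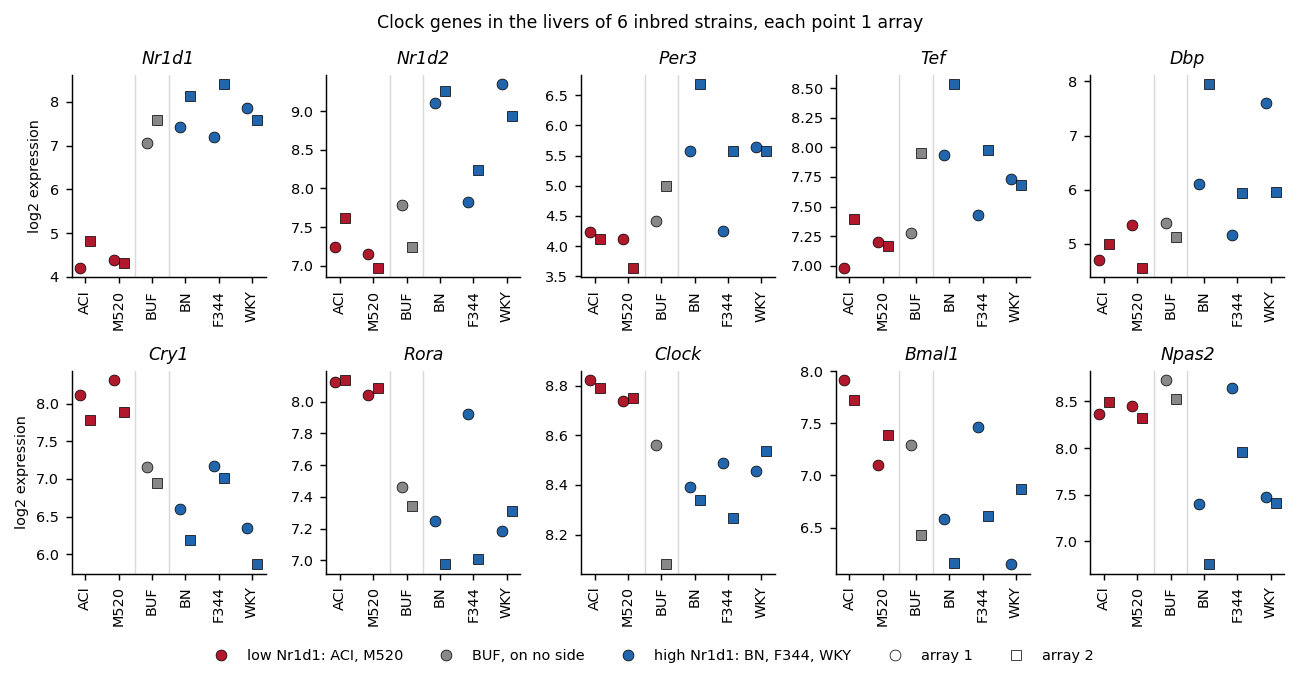
Log2 expression (vertical axes) of 10 clock genes in the 12 inbred rats, by strain, with 1 point per array, circles for array 1 and squares for array 2 of a strain. Nr1d1, Nr1d2, Per3 and Tef are lower and Cry1, Rora and Clock higher in every ACI and M520 array than in any BN, F344 or WKY array, while Dbp, Bmal1 and Npas2 overlap through F344 array 1.

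Besides Nr1d1, 5 core clock genes parted the sides, in both directions, and 9 overlapped. By the probe set of highest mean, 15 core clock genes were measured: Rora, Clock and Cry1 were higher, and Nr1d2 and Per3 lower, besides Nr1d1, in every low-side array than in any high-side array. Over all 14217 genes, 1.79% were higher and 3.21% lower without overlap. The median difference of the list was -0.09, against -0.03 over all genes, since its members went both ways.

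Cry1, a cryptochrome that inhibits BMAL1 and CLOCK, had the widest empty stretch of the clock genes after Nr1d1. It read 8.12 and 7.79 in ACI and 8.31 and 7.89 in M520, against 6.60 and 6.19 in BN, 7.18 and 7.01 in F344, and 6.34 and 5.86 in WKY. The difference was 1.5, or 2.82-fold, and the nearest arrays were 0.61 apart. Rora, the activator that competes with REV-ERB for its element, stood between 8.04 and 8.14 in the low side and between 6.98 and 7.92 in the high side, where its highest array was F344 array 1. Clock itself differed little, by 0.36, but the 4 low-side arrays (8.74 to 8.82) were all above the 6 others (8.27 to 8.54). A dimmer Clock probe set, 1369168_a_at, differed by 0.06 and overlapped.

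On the other limb, Nr1d2, which encodes REV-ERB beta, averaged 7.25 ± 0.27 (SD, n = 4) in the low side and 8.79 ± 0.62 (SD, n = 6) in the high side. Its F344 arrays (7.83 and 8.23) were the lowest of the high side. A further Nr1d2 probe set, 1370541_at, differed by -1.27 without overlap, and the dim 1370540_at by -0.13 with overlap. Per3, a period gene, read 4.23 and 4.12 in ACI and 4.11 and 3.63 in M520. It read 5.57 and 6.69 in BN, 4.25 and 5.58 in F344, and 5.64 and 5.57 in WKY. F344 array 1 lay 0.02 above the highest ACI array, so the sides barely parted. Among 18 clock output genes 1 (5.56%), Tef, did not overlap, by 0.04, where 3.21% of all genes were lower without overlap. It averaged 7.18 ± 0.17 (SD, n = 4) against 7.88 ± 0.38 (SD, n = 6).

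The first F344 array stood apart on several of these genes. It was lower than the second F344 array by 1.23 in Nr1d1, by 1.33 in Per3 and by 0.77 in Dbp. It was higher by 0.85 in Bmal1, by 0.91 in Rora and by 0.68 in Npas2. With it, Bmal1 averaged 7.53 ± 0.36 in the low side and 6.64 ± 0.49 in the high side (SD, n = 4 and 6), and Dbp, the PAR bZIP factor of largest daily swing, 4.90 ± 0.35 against 6.45 ± 1.09; both overlapped. Npas2 overlapped as well, through the value of 8.65 in F344 array 1. Without that array, 8 core clock genes besides Nr1d1 did not overlap in place of 5: Bmal1 (by 0.23), Npas2 (by 0.36) and Cry2 (lower, by 0.08, on its brightest probe set 1372548_at) joined, and the empty stretch grew to 1.34 for Per3 and 0.73 for Rora. Dbp then parted by 0.58. The dimmer Cry2 probe set 1369446_at went the other way with all arrays in: it was higher in the low side by 0.35, without overlap, so the direction of Cry2 is not settled. That array was set aside after its values were seen. BUF did not sort with one side throughout: its Cry1 (7.16 and 6.95) and Rora (7.46 and 7.34) read as in the high side, its Npas2 (8.73 and 8.52) above every low-side array, and its Nr1d2 was split, 7.79 next to the lowest high-side array and 7.25 within the low side. The Per3 of BUF (4.42 and 4.99) lay above every low-side array and below every high-side array except F344 array 1. Per1 and Per2, the other period genes, differed by 0.37 and -0.06 and overlapped.

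Promoter sequence is shown for genes from these limbs: Nr1d1 and Tef, which were low together, Gpr146, a receptor gene described below that went with them, and Bmal1, which went the other way. The sequences are RefSeq's, build GRCr8, each from 250 bases before to 50 after a transcription start, 5′ to 3′. Capitals mark CACGTG, the E-box core, or TAGGTCA, the core of the element bound by REV-ERB and ROR; both strands were searched, with no overlap between motifs.
Nr1d1, chr10:84229405-84229704, minus strand: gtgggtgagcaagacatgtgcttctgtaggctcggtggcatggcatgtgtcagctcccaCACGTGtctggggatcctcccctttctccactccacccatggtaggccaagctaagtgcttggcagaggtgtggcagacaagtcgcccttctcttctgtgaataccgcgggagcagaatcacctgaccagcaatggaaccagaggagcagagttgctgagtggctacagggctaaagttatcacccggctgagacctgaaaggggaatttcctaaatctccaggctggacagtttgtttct
Tef, chr7:115206577-115206876, plus strand: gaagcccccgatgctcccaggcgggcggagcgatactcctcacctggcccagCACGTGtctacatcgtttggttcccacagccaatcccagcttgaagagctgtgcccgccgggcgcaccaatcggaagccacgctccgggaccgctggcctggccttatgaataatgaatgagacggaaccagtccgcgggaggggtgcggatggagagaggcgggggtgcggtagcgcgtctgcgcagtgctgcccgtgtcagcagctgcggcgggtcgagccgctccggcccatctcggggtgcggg
Gpr146, chr12:20380962-20381261, minus strand: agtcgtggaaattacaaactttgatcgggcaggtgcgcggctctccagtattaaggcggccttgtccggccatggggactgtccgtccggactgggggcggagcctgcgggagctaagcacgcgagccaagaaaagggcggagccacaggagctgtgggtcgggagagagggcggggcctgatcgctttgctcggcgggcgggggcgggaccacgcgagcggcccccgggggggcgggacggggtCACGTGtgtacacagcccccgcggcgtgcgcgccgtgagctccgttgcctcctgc
Bmal1, chr1:176766078-176766377, plus strand: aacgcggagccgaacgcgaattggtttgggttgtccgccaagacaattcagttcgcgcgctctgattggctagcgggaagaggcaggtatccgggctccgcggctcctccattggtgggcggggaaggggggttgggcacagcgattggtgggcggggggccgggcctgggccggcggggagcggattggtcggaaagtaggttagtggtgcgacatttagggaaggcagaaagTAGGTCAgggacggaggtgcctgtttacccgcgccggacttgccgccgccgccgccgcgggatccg
The E-box core begins 191 bases before the start in Nr1d1, 198 in Tef and 5 in Gpr146, and TAGGTCA begins 16 bases before the start in Bmal1. A second Nr1d1 start, chr10:84231763-84232062, had neither. Of the 26 genes looked up (the core clock genes and the genes described below that changed with Nr1d1 among HS rats), 23 had a promoter in the table, with 25 windows. CACGTG was in 6 windows (Bhlhe40, Bhlhe41, Gpr146, Nr1d1, Tef and Ung) and in 6.42% of all 33469 promoters of this length. TAGGTCA was in the Bmal1 window alone and in 2.63% of all. The D-box, searched as TTATGTAA and TTACGTAA, was in the Per2 window in its first form and in 0.893% and 0.119% of all. Every window printed above was one that held a motif. The windows of Nr1d2 and Per3, which were low with Nr1d1, held none of the motifs searched. Neither did those of Rora and Clock, which were high. A match of letters is not evidence of binding.

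Across all 31042 probe sets, few separated the sides widely. With an empty stretch of at least 0.5 between the nearest arrays of the sides, 15 probe sets (0.0483%) were higher in the low side and 10 (0.0322%), Nr1d1 among them, were lower. Without F344 array 1 the counts were 31 and 21, and without ACI array 2 the first was 23. Of these 25, 16 had a single gene symbol and stood for 14 genes, and 9 had no single symbol. Differences ran from 1.03 to 3.43. In 15 of the 25 the dimmer side averaged below the median of all values, and in 3 both sides did. Just inside the limit lay 1380125_at (0.52), Nrg1 (0.53) and Ncald (0.54); just outside it lay the ABC transporter gene Abcc4 (0.49), Akr7a3 (0.49) and Prodh2 (0.47). With no minimum width, 547 probe sets (1.76%) were higher and 674 (2.17%) lower without overlap.

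**Figure D2:**
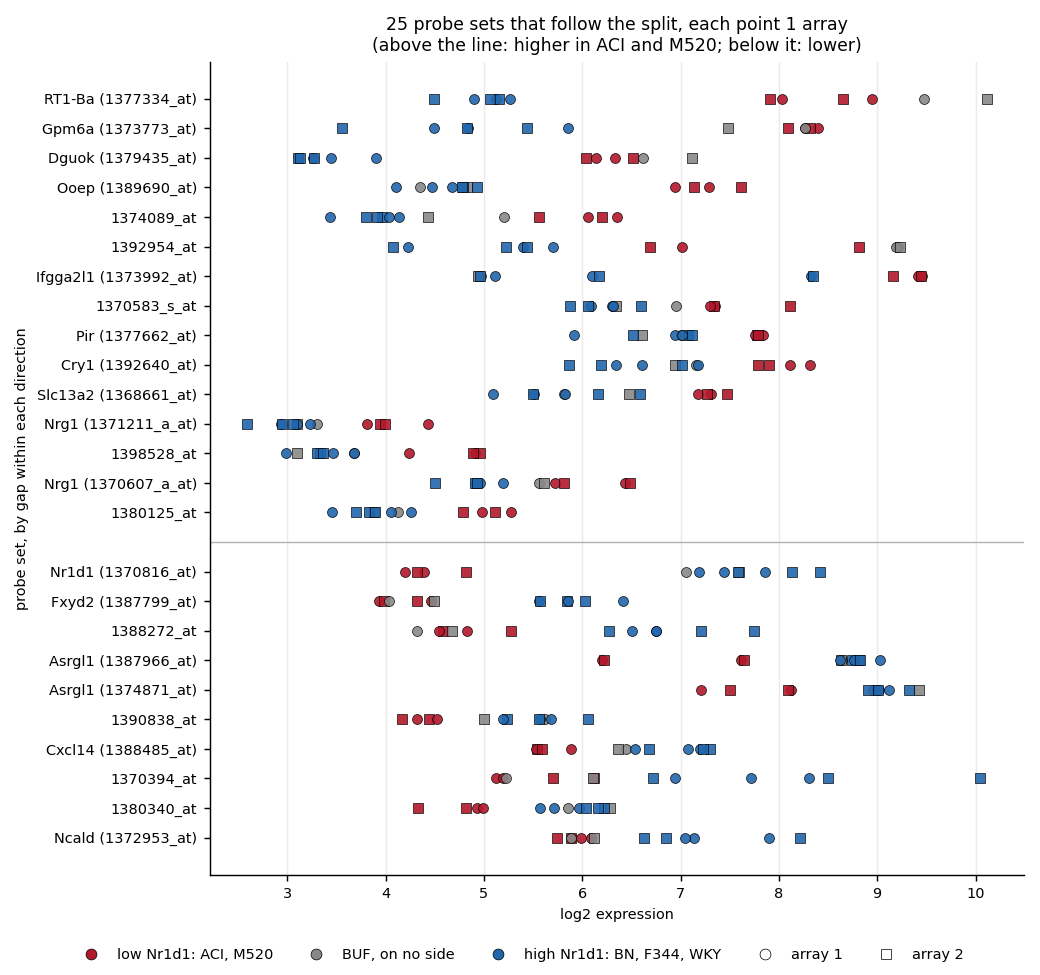
The 25 probe sets that parted by at least 0.5, with log2 expression on the horizontal axis and 1 point per array for the 12 inbred rats; those above the line are higher in ACI and M520, those below it lower. RT1-Ba, Gpm6a, Dguok and Ooep part by more than 2, and the grey BUF points fall with the low side for some probe sets and with the high side for others.

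The widest separations upward were in genes outside the clock lists. Gpm6a, a membrane glycoprotein best known from neurons, read 8.39 and 8.32 in ACI and 8.27 and 8.09 in M520. It read 4.49 and 3.56 in BN, 4.83 in each F344 rat, and 5.85 and 5.44 in WKY. The fold was 10.8 and may be understated, since the mean of the high side lay below the median of all values, though both WKY rats lay above it. For Ooep and for 1377334_at of RT1-Ba every high-side array lay below that median. Both BUF rats (8.26 and 7.49) were with the low side although their Nr1d1 was high. Ooep, a gene named for its expression in oocytes, averaged 7.24 ± 0.29 in the low side and 4.62 ± 0.29 in the high side (SD, n = 4 and 6), and BUF (4.35 and 4.83) was with the high side. These 2 genes have a single probe set each.

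RT1-Ba, the alpha chain of a class II histocompatibility molecule, was higher in the low side on 1377334_at, 8.39 ± 0.49 against 5.0 ± 0.28 (SD, n = 4 and 6), and BUF (9.48 and 10.1) was higher still. The 3 other RT1-Ba probe sets went against it: the brightest, 1370822_at, averaged 7.67 in the low and 8.62 in the high side with overlap, and the others differed by -0.76 and -0.71. The partners in peptide loading RT1-DMa and RT1-DMb were lower in every low-side array, by 0.77 and 1.06. Of 21 histocompatibility genes measured by their brightest probe set, 18 had the lower mean in the low side and 2, RT1-DMa and RT1-DMb, did not overlap, with a median difference of -0.33; of all 14217 genes 8002 had the lower mean and 3.21% were lower without overlap. A level of RT1-Ba cannot be drawn from 1377334_at alone.

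Dguok, the mitochondrial kinase that salvages purine deoxynucleosides, gave a like picture. On 1379435_at it averaged 6.25 ± 0.21 in the low side and 3.35 ± 0.29 in the high side (SD, n = 4 and 6). On its brighter probe set, 1372799_at, it averaged 8.71 and 8.42, a difference of 0.28 with the nearest arrays 0.01 apart. The 7.48-fold value therefore belongs to 1 of its 2 probe sets. In all, 8 of the 14 genes had 1 probe set; the other 6 had 13 further probe sets, of which 1, that of Dguok, did not overlap in the same direction.

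Smaller separations upward were seen in 4 named genes besides Cry1. Ifgga2l1, of a family of interferon-inducible GTPases, stood between 9.16 and 9.46 in the low side. In the high side it was 8.32 and 8.35 in BN but 5.11 and 4.96 in F344 and 6.10 and 6.17 in WKY, and BUF read 4.97 and 4.93. BN set the width of its separation. Pir, pirin, a redox-regulated nuclear protein, was nearly level in the low side, 7.79 ± 0.04 (SD, n = 4), against 6.76 ± 0.46 (SD, n = 6). Slc13a2, a sodium-coupled carrier of dicarboxylates and citrate, averaged 7.30 ± 0.12 against 5.78 ± 0.53 (SD, n = 4 and 6). Nrg1, the growth factor neuregulin 1, parted on 2 of its 8 probe sets, with differences of 1.21 on 1370607_a_at and 1.07 on 1371211_a_at, both near or below the median of all values. The other 6 Nrg1 probe sets overlapped.

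Downward, 4 named genes joined Nr1d1. Fxyd2, a regulatory subunit of the sodium pump, averaged 4.17 ± 0.26 in the low side and 5.88 ± 0.32 in the high side (SD, n = 4 and 6); BUF (4.03 and 4.49) was with the low side. Asrgl1, an asparaginase-like enzyme, read 7.62 and 7.64 in ACI and 6.20 and 6.22 in M520 on 1387966_at, while the 6 high-side arrays lay between 8.62 and 9.03. On 1374871_at it parted likewise, by 0.78, and on the dim 1375458_at it overlapped. ACI and M520 differed from each other on both of the parting probe sets (1.42, adjusted p = 1.2e-04, and 0.75, adjusted p = 0.041, limma with Benjamini-Hochberg adjustment). Cxcl14, a chemokine, averaged 5.64 ± 0.17 against 7.0 ± 0.32, and Ncald, a neuronal calcium sensor, 5.93 ± 0.15 against 7.29 ± 0.62 (SD, n = 4 and 6 in each). A dimmer probe set of each gene overlapped. Among probe sets without a single gene symbol, 1370394_at had the largest downward difference, -2.50, and its BN rats alone spanned 8.31 to 10.05.

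The left-out strain did not take one side. Of the 24 probe sets besides Nr1d1, 13 had both BUF arrays nearer the high side, 9 had both nearer the low side and 2 were split. Upward, the counts were 8, 5 and 2 of 15; downward, 5 and 4 of 9. Adding BUF to the high side left 8 higher and 4 lower probe sets, and adding it to the low side 4 and 4.

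Strains within a side were not alike on all of these. ACI and M520 differed on 4 of the 24 probe sets, where 2.3% of all probe sets (714) passed the same limma test; leaving out any ACI or M520 rat lowered that number to between 208 and 327. BN, F344 and WKY differed among themselves on 7 of the 24, where 6.23% of all (1933) did; without BN array 1 it was 1253. The choice of probe sets used these arrays, so the counts describe the set and are no test of it. The 4 were 1392954_at (-2.16, ACI minus M520), Nrg1 by 1370607_a_at (-0.69) and both Asrgl1 probe sets. The 7 included Gpm6a, Ifgga2l1, Pir, Cry1 and Cxcl14.

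The HS rats gave a test that the choice of strains had not used. Each probe set was fitted against Nr1d1 over the 46 rats, with the glucose group as a covariate. The fit took the 46 rats as unrelated. Their hour of death and family, which the sources do not give, could not enter it. Of 31041 probe sets, 56 (0.18%) rose with Nr1d1 and 48 (0.155%) fell, at an adjusted p below 0.05 in limma. Without the 2 rats farthest from the median of Nr1d1, 31 rose and 20 fell. The slope is the change in log2 level per unit of log2 Nr1d1. Of the 24 separating probe sets, 2 passed, both in the direction of the strains: Cry1, with a slope of -0.39 ± 0.07 (SE, n = 46, adjusted p = 4.8e-04), and 1380340_at, with 0.32 ± 0.06 (SE, n = 46, adjusted p = 0.0052). For Cry1 the call was lost without the 2 rats farthest from the median of Nr1d1 (-0.31, adjusted p = 0.067). Of the remaining 22, the slope had the direction of the strains in 11.

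**Figure D3:**
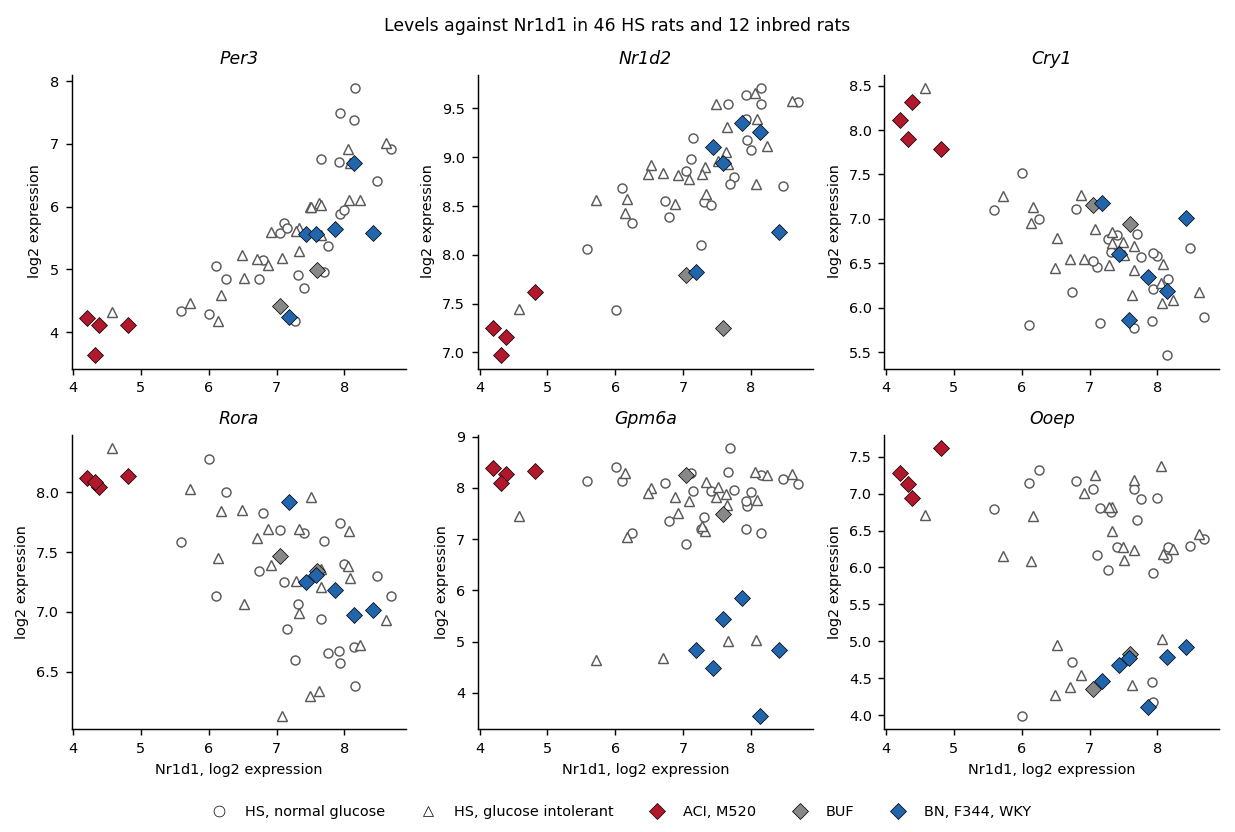
Log2 expression of 6 genes (vertical axes) against log2 Nr1d1 (horizontal axes) in 46 HS rats (open circles for normal glucose, open triangles for glucose intolerant) and 12 inbred rats (diamonds). Per3 and Nr1d2 rise and Cry1 and Rora fall with Nr1d1 among the HS rats, whereas Gpm6a and Ooep form an upper and a lower band, with low rats at several levels of Nr1d1.

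The genes of widest separation varied among HS rats without a detected tie to Nr1d1. Gpm6a was between 4.64 and 5.03 in 4 HS rats and between 6.90 and 8.77 in the other 42, with a slope of 0.13 ± 0.15 (SE, n = 46, adjusted p = 0.89). In Ooep, 10 rats lay at or below 5.03 and 36 at or above 5.92, with a slope of 0.01 ± 0.16 (SE, n = 46, adjusted p = 0.996). RT1-Ba on 1377334_at had 4 rats at or below 5.67 and 42 at or above 6.86, and Dguok on 1379435_at 4 at or below 4.29 and 42 at or above 5.01. Their slopes were 0.17 ± 0.20 and 0.09 ± 0.13 (SE, n = 46, adjusted p = 0.89 and 0.92). On these 4 probe sets the HS rats reached into the range of both sides, as they did for Nr1d1.

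The slope test was also read over every probe set whose sides did not overlap. Of the 1220 probe sets without overlap, at any width and besides Nr1d1, 26 passed the slope test in limma in the direction of the strains. In the opposite direction 0 passed. At an unadjusted p below 0.05 the counts were 203 and 5. The share of all probe sets at that unadjusted p was not counted, so these 2 counts stand without a background. Without the 2 rats farthest in Nr1d1, 14 passed in place of 26. The 26 are 2.13% of the 1220, where 0.335% of all probe sets passed in either direction. Seen from the HS rats, 26 of their 104 called probe sets (25%) did not overlap between the sides, where 3.93% of all probe sets did not. The sign of the strain difference matched that of the slope in 96 of the 104, and in 60.1% of all probe sets. The median difference between the sides was -0.31 for the 56 that rose and 0.33 for the 48 that fell.

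**Figure D4:**
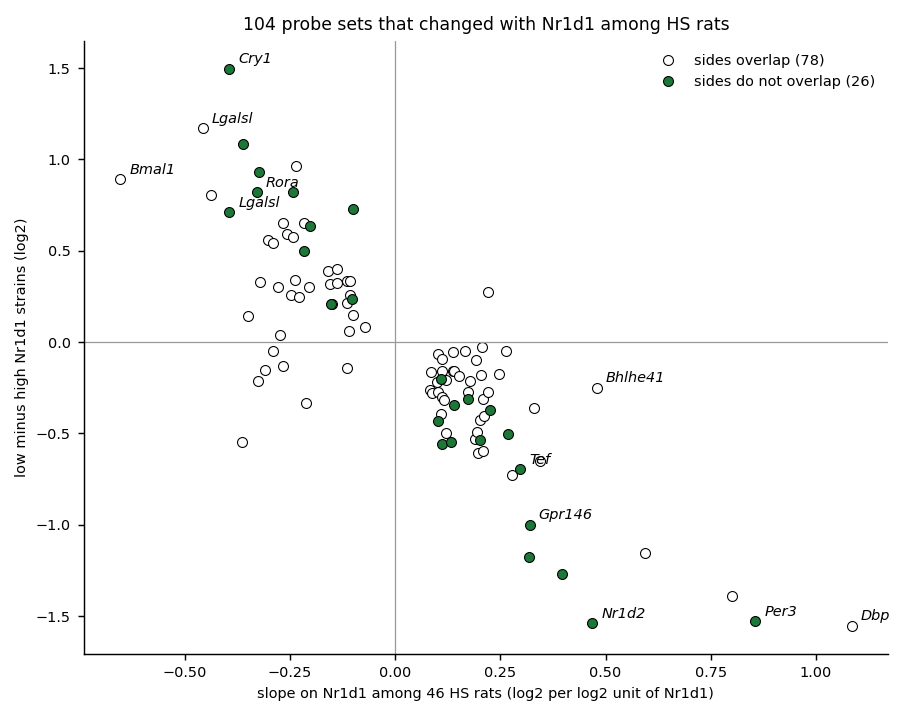
The 104 probe sets that changed with Nr1d1 among HS rats, with the HS slope on the horizontal axis and the low-minus-high difference of the strains on the vertical axis (both log2). Filled points are the 26 whose sides do not overlap, and 96 of the 104 points lie in the upper left or lower right quadrant.

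The 26 probe sets had 17 with a single symbol, for 15 genes, and clock genes had the largest slopes. Per3 rose by 0.86 ± 0.10 per unit of Nr1d1 (SE, n = 46, adjusted p = 4.4e-07) and Nr1d2 by 0.47 ± 0.06 (SE, n = 46, adjusted p = 1.5e-06). A further Per3 probe set, 1388239_at, did not pass. Tef rose on both of its brighter probe sets, by 0.30 ± 0.05 (SE, n = 46, adjusted p = 0.0014) and 0.27 ± 0.06 (SE, n = 46, adjusted p = 0.011). Rora fell by 0.33 ± 0.08 (SE, n = 46, adjusted p = 0.040). Without the 2 rats farthest in Nr1d1 the slope of Rora was -0.32 and its adjusted p 0.21. A further Rora probe set, 1380478_at, did not pass with all rats in. Clock missed the threshold on the probe set that parted the strains (-0.13, adjusted p = 0.056), while another of its probe sets, 1389456_at, fell by 0.15 (adjusted p = 0.0091) but overlapped between the sides.

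Some clock genes that overlapped between the sides changed among HS rats. Bmal1 fell by 0.65 ± 0.10 (SE, n = 46, adjusted p = 9.6e-05) and Dbp rose by 1.08 ± 0.17 (SE, n = 46, adjusted p = 1.1e-04). Bhlhe41, a repressor known as DEC2, rose by 0.48 ± 0.09 (SE, n = 46, adjusted p = 0.0064), although its strain difference was small (-0.25) and its level dim on all inbred arrays. Npas2 had a slope of -0.54 that missed the threshold (adjusted p = 0.071). Per1, Per2 and Cry2 did not pass (adjusted p = 0.98, 0.60 and 0.26). By the brightest probe set, 3 of 14 core clock genes rose and 3 fell, and 2 of 18 clock output genes, Dbp and Tef, rose; over all genes 0.253% rose and 0.204% fell.

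Outside the clock lists, the genes that followed both the strains and the HS rats were mostly of small range. Gpr146, an orphan receptor with a known link to plasma cholesterol, was lower in the low side by 1.0, averaging 6.95 ± 0.23 against 7.95 ± 0.51 (SD, n = 4 and 6), and rose with Nr1d1 by 0.32 ± 0.05 (SE, n = 46, adjusted p = 5.7e-04). Lgalsl, a galectin-like gene, was higher in the low side by 0.71 and fell by 0.39 ± 0.07 (SE, n = 46, adjusted p = 5.8e-04). Its other probe set, 1376867_at, fell as well but overlapped between the sides. Slc25a10, the mitochondrial dicarboxylate carrier, rose by 0.22 ± 0.04 (SE, n = 46, adjusted p = 0.0039), and Tjp1, the tight junction protein ZO-1, fell by 0.15 ± 0.03 (SE, n = 46, adjusted p = 6.1e-04), with strain differences of -0.37 and 0.21. Ung, a uracil glycosylase of DNA repair, P2rx4, an ATP-gated channel, Nhlrc2, Gpr107 and Ttc7b rose, and the phosphatase gene Ptpn12 fell, with slopes of 0.10 to 0.17 in size. For all 6 of these the adjusted p rose past 0.05 without the 2 rats farthest in Nr1d1, to between 0.061 and 0.23, while the slopes stayed close to or above their size (P2rx4 0.102 and 0.105, Ttc7b 0.174 and 0.207, Ptpn12 -0.104 and -0.113, with all rats and without the 2). Without F344 array 1, the genes that neither overlapped nor failed the slope test numbered 26 in place of 15.

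Of the 104 probe sets, 8 went against the strains. They included Angptl4, Plin2 and G0s2, genes of lipid storage and lipolysis, which fell with Nr1d1 among HS rats by 0.29, 0.27 and 0.21 but had a mean lower, not higher, in the low side (-0.05, -0.13 and -0.33), with overlap in each. The others were Tor3a, C2h4orf46, Sytl2 and Pgrmc2, which also fell, and Hes6, which rose. Of the 8, Tor3a had the largest strain difference (-0.55) and the steepest slope (-0.36).

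The slopes did not differ detectably between glucose groups. With limma, 0 of 31041 probe sets passed the test of the difference in slope, and 1188 had an unadjusted p below 0.05. In normal rats Per3, Nr1d2 and Cry1 had slopes of 0.97, 0.53 and -0.28, and in intolerant rats 0.76, 0.42 and -0.48. The single HS rat with Nr1d1 in the range of the low side was glucose intolerant.

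Other groups of liver genes were read beside the same split, by their brightest probe sets. Over all 14217 genes, 6215 had the higher mean in the low side and 8002 the lower, and 1.79% were higher and 3.21% lower without overlap. Of 32 genes of xenobiotic metabolism, 24 had the higher mean in the low side, with a median difference of 0.22, and 4 did not overlap: Gsta1, a glutathione transferase (0.47), Ces1d, a carboxylesterase (0.63), and the cytochromes Cyp3a2 (0.61) and Cyp3a18 (0.92). For Cyp3a18 the nearest arrays of the sides were 0.08 apart, and the WKY rats, at 10.6 and 12.3, were the lowest of the high side. Of 15 NRF2 targets, 12 had the higher mean, and the aldo-keto reductase gene Akr7a3 (1.42), Gclc of glutathione synthesis (0.61) and Txnrd1, thioredoxin reductase (0.39), did not overlap. None of these 7 had a slope on Nr1d1 that passed (adjusted p = 0.65 to 0.997). Of 16 cholesterol genes 14 had the higher mean, with a median of 0.31, but all overlapped. Of 14 genes of gluconeogenesis and glucose handling 13 had the lower mean, with a median of -0.17, and all overlapped. Of 17 bile acid genes 8 had the higher and 9 the lower mean, and 1 did not overlap in each direction: Cyp8b1, the sterol 12-alpha-hydroxylase, was lower by 1.01 and Baat, which conjugates bile acids, higher by 0.35.

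Markers of Kupffer, endothelial and stellate cells leaned the same way as Nr1d1, and those of other non-parenchymal cells did so less or not at all. Of 15 Kupffer cell and macrophage markers, 14 had the lower mean in the low side (median -0.37), as did 15 of 16 endothelial markers (median -0.34) and 21 of 22 stellate and matrix markers (median -0.22), while 8002 of all 14217 genes did. Vwf, von Willebrand factor, alone among these did not overlap: it averaged 5.96 ± 0.18 against 7.14 ± 0.50 (SD, n = 4 and 6). The mean log2 level of the Kupffer list ranged over 8.23 to 9.01 in the low side and 8.58 to 9.49 in the high side, and that of the endothelial list over 7.16 to 7.55 and 7.42 to 8.11. No Kupffer marker and 1 endothelial marker, Flt1, was below the median of all values on every inbred array. Hepatocyte markers were bright on all inbred arrays, with a mean log2 level of 13.3 to 13.5, and 11 of 13 also had the lower mean in the low side (median -0.02), Apoa1 without overlap. Of 19 T, B and NK cell markers 10 had the lower mean (median -0.02), and 13 were below the median of all values on every inbred array. The lower mean was also seen in 6 of 9 bile duct markers (median -0.07) and 5 of 8 neutrophil markers (median -0.009). For red blood cell markers it was 3 of 6 (median 0.009). In bulk tissue, fewer cells of a type and less RNA per cell cannot be told apart, and the part of these cells in the other differences was not tested. Among HS rats 0 of the 53 Kupffer, endothelial and stellate markers passed the slope test in limma. At an unadjusted p below 0.05, 2 of the 53 rose and 1 fell.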

How the data were processed

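Liver RNA of 58 rats was amplified in double cycles and hybridised to Affymetrix rat genome arrays, per the labels' protocols. The authors' deposited table holds log2 expression for 31042 probe sets, from 1.86 to 15.0, with array medians between 5.33 and 5.39; the sources used here do not give the summarisation or normalisation, and the submitters' processing notes name Partek. Values were used as deposited, without a filter. Precision is limited by the number of arrays. Gene symbols came from the platform annotation (1 symbol for 20826, several for 436, none for 9780), with 14167 of 14217 gene identifiers found in GRCr8. No array pair was identical.

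A side mean is the mean of its strain means. A probe set separated the sides when every array of one side lay beyond every array of the other by at least 0.5. Slopes on Nr1d1 (43 residual degrees of freedom) and strain differences (12 inbred arrays, 6 residual degrees of freedom) were fitted in R 4.3.3 with limma 3.58.1, tested on simulated data, with Benjamini-Hochberg adjustment over all probe sets and a threshold of 0.05. Named were clock genes, up to 12 separating genes a direction, up to 4 of each list, and the separating genes that passed among HS rats; others named were picked after their values were seen. Members, lists and rules were chosen with earlier results of these data known. The count without a minimum width and the results without F344 array 1 were added after seeing the data.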

Additional observations from a re-analysis of the deposited data

Results flagged for a closer look

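In 3 probe sets 1 of the 4 low-side arrays stood away from the other 3 by most of the group's whole range. They were 1370583_s_at, where M520 array 2 read 8.11 (a share of the range of 0.942), 1398528_at, where M520 array 1 read 4.24 (0.911), and Ifgga2l1, where ACI array 2 read 9.16 (0.858). For 1370583_s_at that array lay farther from the high side, and for the other 2 nearer to it. Of 50 groups examined, 3 gave such an array. The groups belong to probe sets chosen on these same arrays, and no chance rate was computed for them.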

How the results depend on the processing

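The number of separating probe sets (15 higher, 10 lower) moved with the width asked for and with the strains used: 71 and 40 at a width of 0.25, 5 and 3 at 1, 7 and 5 with 1 probe set per gene, 102 and 89 without strain ACI, 96 and 60 without M520, 35 and 21 without BN, 77 and 56 without F344, 32 and 36 without WKY, 4 and 4 with BUF on the low side, and 8 and 4 with BUF on the high side. Leaving out 1 array gave 16 to 31 higher and 10 to 21 lower; fewer arrays can only widen a separation. Quantile normalisation gave 16 and 10, and centring 15 and 10.

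Among HS rats the counts of 56 rising and 48 falling became 31 and 20 without the 2 rats farthest in Nr1d1, 7 and 6 in glucose-intolerant rats alone, and 288 and 222 with the first residual component added to the fit; in glucose-normal rats alone limma called 0 and 0, with 1215 and 1001 at an unadjusted p below 0.05. The number of the 24 separating probe sets that passed was 2, and it was 1 with 1 probe set per gene, 1 in intolerant rats alone and 0 in normal rats alone (4 at an unadjusted p below 0.05). The number of the 1220 probe sets without overlap that passed was 26, and it was 16 with 1 probe set per gene, 14 without the 2 rats, 5 in intolerant rats, 0 in normal rats (179 at an unadjusted p below 0.05 in the matching direction) and 89 with the residual component. The cause of these moves was not tested, beyond the smaller number of rats or probe sets.

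ACI and M520 differed in 714 probe sets, in 1507 when only those strains entered the fit, and in 208 to 821 when 1 array was left out; BN, F344 and WKY differed in 1933, 1166 and 1253 to 2261. With the replicate number as a replicate block the counts were 657 and 1944; the numbers pair nothing in the labels, and of 15 strain pairs 3 had deviations of array 1 correlated above 0.1 (-0.15 to 0.42). Core clock genes without overlap numbered 5 to 8 over single arrays left out, 8 without F344 array 1. The gene count that did not overlap and passed was 26 without that array, and 15 with it. Of 760 single differences recomputed, 735 moved by less than the replicate spread, 24 by more, and 1 turned: Ptpn12, to -0.045 with BUF on the low side. Of 380 single slopes, 326 kept their side of the threshold, 46 lost it and 8 gained it.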

Other observations

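The genes in this paragraph were picked after their values were seen and support no statement on a group. Perp and Gtse1 were looked at beside them and are not described, so the directions below leave those 2 genes out. Cdkn1a also belongs to the glucocorticoid targets, where 1 of 18 genes (5.56%), Cdkn1a itself, was higher without overlap, against 1.79% of all genes. Ccng1, cyclin G1, averaged 8.64 ± 0.21 in the low side and 7.77 ± 0.16 in the high side (SD, n = 4 and 6). Tp53inp1, a p53-induced nuclear protein, differed by 1.41, and Cdkn1a, the cell cycle inhibitor p21, by 1.51 on its brighter probe set, where BN, F344 and WKY ranged from 5.92 to 8.68. Mdm2, the ubiquitin ligase that restrains p53, was higher without overlap on 2 probe sets (0.61 and 0.36) and higher by 0.44 with overlap on a dimmer one. Zmat3 differed by 0.25 without overlap. Aen and Phlda3 were higher in the mean by 0.34 and 0.50 and overlapped, Sesn1 gave -0.13 on its brighter probe set and 0.47 on its dimmer one, and Polk differed by -0.005. None of these passed the slope test on Nr1d1 among HS rats (adjusted p = 0.55 to 0.99).

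Myc, a transcription factor of growth, was higher in every low-side array, 8.06 ± 0.41 against 6.22 ± 1.16 (SD, n = 4 and 6), with BN at 7.25 and 7.01, F344 at 5.21 and 5.03 and the WKY rats apart from each other at 7.52 and 5.3. Its slope on Nr1d1 among HS rats was -0.39 (adjusted p = 0.11). Within strains, 35 probe sets differed by more than 1 between the ACI rats and 80 between the M520 rats, against 151 in BN, 243 in F344, 341 in BUF and 424 in WKY.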
